A study of Mus musculus with 16 samples.

Results

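The miRNAs described here are the 2 arms of each of 2 mouse hairpins, miR-21a and miR-22. Their names in the table are mmu-miR-21a-5p, mmu-miR-21a-3p, mmu-miR-22-3p and mmu-miR-22-5p, shortened below by the species prefix. They were taken by name from a table of mature miRNA counts, and all 4 were found among the 1372 names analysed. The table covers cultured bone marrow dendritic cells of male C57BL/6 mice, marked WT (wild type) in the sample titles. It holds 4 groups of 4 libraries that the labels number by mouse. The first group received quercetin, a plant flavonol given as the aglycone at 25 µM on days 5 and 7, and then, on day 8, 6 h of lipopolysaccharide at 1 µg/mL (LPS, from the outer membrane of bacteria, which TLR4 senses). The second received quercetin alone, the third LPS alone, and the fourth, the control, neither. In every group red cells had been lysed before culture, and mouse 4 was 7 weeks old where mice 1 to 3 were 8 weeks old, per the labels. The questions were how large a share of the miRNA counts these arms held, how unequal the arms of each hairpin were, and whether either differed with quercetin or LPS.

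A miRNA hairpin is cut into a duplex of a 5p and a 3p arm. One arm, the guide, is usually kept by an Argonaute protein, and the other, the passenger, is usually degraded, so their counts are unequal. The guide pairs with target mRNAs mainly through its seed, bases 2 to 8. miR-21 is transcribed in myeloid cells after Toll-like receptor signals and is known to restrain PDCD4, a protein that promotes inflammatory signalling. In mouse dendritic cell development miR-22 is known to restrain Irf8, a transcription factor of the lineage. The guide is the 5p arm in miR-21a and the 3p arm in miR-22, so the hairpins differ in the side that is kept. The mature sequences (RefSeq, GRCm38.p6) are shown to let the arms be compared, 5′ to 3′, with the seed in capitals.

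miR-21a-5p: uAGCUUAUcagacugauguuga

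miR-21a-3p: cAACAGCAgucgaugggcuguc

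miR-22-3p: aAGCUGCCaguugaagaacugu

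miR-22-5p: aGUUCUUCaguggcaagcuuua

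The 4 seeds differ from one another. All 4 arms are 22 bases long. GC content was 36.4% in miR-21a-5p and 59.1% in miR-21a-3p, the guide lying below and the passenger above the median of 50% over tested miRNAs. It was 45.5% in miR-22-3p and 40.9% in miR-22-5p. Mir22 lies on chromosome 11 at 75463716 to 75463810 on the plus strand of GRCm38.p6, within exon 2 of the non-coding host gene Mir22hg. It also lies within exon 2 of the protein-coding gene Tlcd2, annotated on that strand. Mir21a lies on the same chromosome at 86584067 to 86584158 on the minus strand, within the untranslated part of exon 12 of Vmp1. The counts were made on mm9, and no coordinate from that build is given here.

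The libraries held between 6454535 and 13943904 miRNA counts each (6454535 to 9035375 in quercetin plus LPS, 7694885 to 8563815 in quercetin, 10096639 to 13943904 in LPS and 8660267 to 12529118 in control). Of the myeloid markers, which include miR-223 and miR-142a and are not particular to dendritic cells, 6 of 6 were found, at a summed level of 18053 to 40093 CPM per library (counts scaled to the same total in every library). Some markers of other cells were higher with quercetin. The 5 erythroid miRNAs summed to 2342 to 5842 CPM in quercetin plus LPS and 5041 to 13116 in quercetin, against 865 to 2796 in LPS and 775 to 1769 in control. These sums hold both miR-486a-5p and miR-486b-5p, which had the same mean in each group, so that level enters the sums from both rows. Each averaged 2178 CPM in quercetin plus LPS, 3660 in quercetin, 822 in LPS and 619 in control. miR-451a averaged 139.6 CPM in quercetin plus LPS and 128.3 in quercetin, against 17.1 in LPS and 18.1 in control. For miR-144-3p the means were 19.7 and 11.2 against 1.98 and 1.48, in the same order. The 12 stromal, endothelial and epithelial miRNAs summed to 403 to 4683 CPM in quercetin plus LPS and 315 to 1467 in quercetin, against 207 to 275 in LPS and 197 to 638 in control, and no marker was at 0 in all libraries. Within that list miR-143-3p, a smooth muscle and fibroblast miRNA, averaged 1264 CPM in quercetin plus LPS and 447 in quercetin, against 39.4 in LPS and 139.9 in control. The epithelial miR-200c-3p lay the other way (14.9 and 13.1 against 22.2 and 19.6), and the endothelial miR-126a-3p was at 7.10 to 9.82 in all groups. The 2 lymphocyte miRNAs, both arms of miR-150, summed to 374 to 627 CPM in quercetin plus LPS and 543 to 787 in quercetin, against 382 to 872 in LPS and 391 to 1023 in control. Their part in the results below was not tested. In bulk RNA, fewer cells of a type and less RNA per cell cannot be told apart. On the second principal component control 3 and the LPS, quercetin and quercetin plus LPS libraries of mouse 4 stood higher than the rest of their groups, so results were also computed without them.

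The guide arms were the most abundant miRNAs of the control cells. miR-22-3p held 14.8% ± 2.40 of control counts and miR-21a-5p 13.4% ± 2.91 (SD, n = 4), followed by miR-181a-5p at 9.18% ± 1.85 and miR-27b-3p at 6.86% ± 0.925. miR-155-5p, which Toll-like receptor signals induce, held 3.51% ± 0.947 there. Over all 16 libraries miR-22-3p ranked between 1 and 3 and miR-21a-5p between 1 and 4, and they took ranks 1 and 2 in 11 of the 16. Together the 4 arms made up between 20.3% and 33.7% of a library's counts, with a median of 29.8%.

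By library, miR-21a-5p made up 12.6%, 18.2%, 15.7% and 19.8% of counts in quercetin plus LPS replicates 1 to 4. Its share was 11.8%, 13.7%, 12.3% and 15.9% in quercetin, 10.2%, 8.98%, 15.4% and 13.98% in LPS and 15.2%, 9.15%, 13.99% and 15.3% in control. The highest share stood in quercetin plus LPS 4 and the lowest in LPS 2, and all groups overlapped. Counting error is small beside this spread: the widest 95% Wilson interval of a miR-21a-5p share was 0.0281 percentage points to either side, covering counting error only.

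The share of miR-22-3p was 17.7%, 15.3%, 15.3% and 10.99% in quercetin plus LPS replicates 1 to 4. In quercetin it was 17.2%, 16.4%, 17.2% and 15.1%, in LPS 12.1%, 11.2%, 17.4% and 13.5%, and in control 18.1%, 14.8%, 12.4% and 13.96%. The quercetin libraries lay closest together and every other group reached lower, so the groups overlapped here too. miR-22-3p stood above miR-21a-5p in 1 of 4 quercetin plus LPS, 3 of 4 quercetin, 3 of 4 LPS and 2 of 4 control libraries. The order of the guides therefore was not fixed: their ratio, miR-21a-5p over miR-22-3p, ran from 0.617 to 1.80 with a median of 0.868.

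The passenger arms were far scarcer and more variable. Levels are given for them as CPM after TMM scaling, a library scaling that uses the bulk of the miRNAs. In replicates 1 to 4 of quercetin plus LPS miR-21a-3p was at 257, 1579, 1060 and 223 CPM, and in quercetin at 1005, 282, 319 and 755 CPM. It was at 1197, 1780, 755 and 479 CPM in LPS and at 1221, 1205, 314 and 679 CPM in control. Every group held libraries with a level several times that of others, and its range over the 16 libraries was 7.97-fold. It ranked between 52 and 106.

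In replicates 1 to 4 of quercetin plus LPS miR-22-5p was at 46.3, 37.7, 53.6 and 87.4 CPM, and in quercetin at 36.04, 58.4, 67.4 and 63.3 CPM. It was at 71.6, 59.3, 89.5 and 122 CPM in LPS and at 70.1, 39.6, 108 and 76.7 CPM in control. The 2 highest levels were those of LPS 4 and control 3, and the groups overlapped. It was counted between 293 and 1129 times per library and ranked between 134 and 218.

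**Figure D1:**
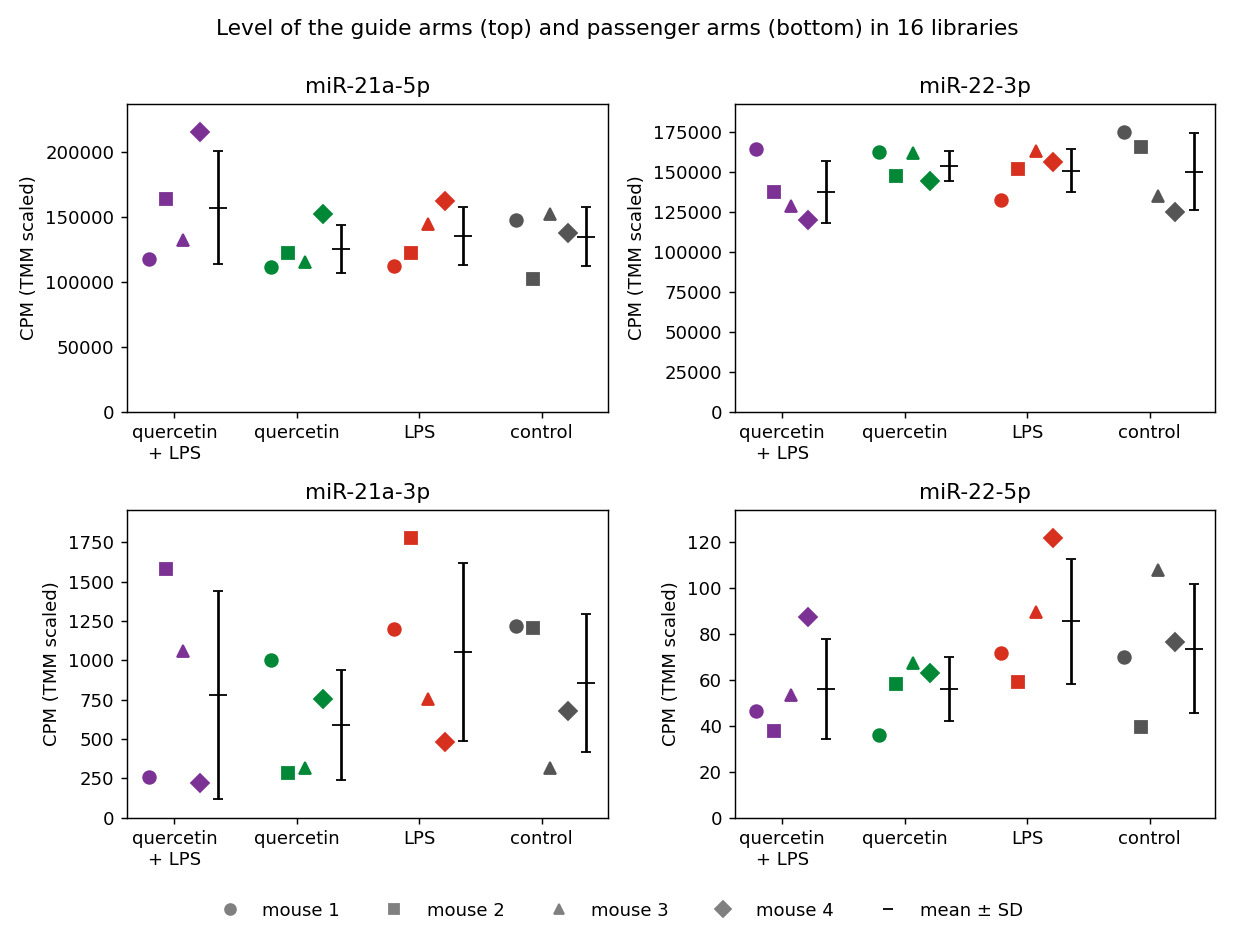
Level in CPM (TMM scaled, y axis from 0) of each arm in the 16 libraries by group, with a marker per mouse and the mean ± SD (n = 4) in black. All groups overlap in all 4 panels. miR-22-3p stays between 119835 and 175274 CPM, while miR-21a-3p runs from 223 to 1780 CPM.

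The arms differed in how much they varied between replicates. The within-group SD of log2 CPM was 0.17 for miR-22-3p, 0.28 for miR-21a-5p, 0.498 for miR-22-5p and 1.05 for miR-21a-3p, against a median of 0.40 over the 311 miRNAs with a mean of at least 10 CPM. Counted from the lowest SD, miR-22-3p stood at place 2 and miR-21a-3p at place 295 of these 311. The place of miR-22-3p depended on the scaling. It lay between 2 and 16 when each library in turn served as the TMM reference, and at 39, with an SD of 0.24, when counts were scaled by library size alone. That of miR-21a-3p lay between 294 and 297 in the same alternatives.

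Quercetin was compared first in cells then given LPS. miR-21a-5p averaged 157160 ± 43397 CPM in quercetin plus LPS and 135236 ± 22445 in LPS (SD, n = 4 each), a log2 fold change of 0.22 (95% interval -0.21 to 0.64, adjusted p = 0.484 by edgeR). This was the lowest of 16 values when each library in turn was the TMM reference (highest 0.39). Over 30 alternatives, not counting the GC index described below, it ran from 0.13 to 0.48 (smallest adjusted p 0.0992 by edgeR). miR-22-3p averaged 137546 ± 19200 and 150926 ± 13285 CPM in the same groups (log2 fold change -0.13, interval -0.45 to 0.18, adjusted p = 0.579 by edgeR). The sign of this value turned with the scaling, and it was 0.12 with upper quartile and 0.13 with library size scaling. Its share of counts was 14.8% ± 2.78 in quercetin plus LPS and 13.5% ± 2.75 in LPS.

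The passenger arms were at lower mean levels with quercetin but did not pass either. miR-22-5p averaged 56.3 ± 21.8 CPM in quercetin plus LPS and 85.6 ± 27.3 in LPS, a log2 fold change of -0.61 (interval -1.31 to 0.10, adjusted p = 0.207 by edgeR). Its share was lower in quercetin plus LPS in 4 of 4 mice. The two-sided exact permutation test, which does not pair libraries by mouse, gave p = 0.286. miR-21a-3p averaged 780 ± 658 and 1053 ± 568 CPM (log2 fold change -0.43, interval -1.76 to 0.90, adjusted p = 0.685 by edgeR). That value turned to 0.10 without LPS 2, 0.068 without quercetin plus LPS 4 and 0.023 without quercetin plus LPS 1, and to 0.37 with the GC index, a library measure described below that was added to the model after the data were seen. With that index miR-22-5p was at -1.04 (adjusted p = 0.0231 by edgeR), a call made in no other setting, where its adjusted p was at least 0.0904. Thus 0 of the 4 arms passed with the settings reported, in a comparison in which 22.9% of the 568 tested miRNAs did. That share was 13.8% without LPS 1, 13.9% without LPS 2 and 13.8% without mouse 4. The levels of the groups overlapped for each arm in this and the other 3 comparisons of single groups. Over all tested miRNAs the groups did not overlap for 20.2% in quercetin plus LPS against LPS, 21.5% in quercetin against control, 3.17% in LPS against control and 3.7% in quercetin plus LPS against quercetin.

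Without LPS the picture was similar. Between quercetin and control the log2 fold changes were -0.10 for miR-21a-5p (interval -0.53 to 0.32) and 0.03 for miR-22-3p (interval -0.28 to 0.35). They were -0.53 for miR-21a-3p (interval -1.87 to 0.80) and -0.39 for miR-22-5p (interval -1.09 to 0.32). None of the 4 passed (adjusted p 0.481 to 0.895 by edgeR), where 15.8% of tested miRNAs did (9.35% without quercetin 3, 9.22% without quercetin 4, 8.03% without mouse 4 and 7.63% without the 4 libraries that stood apart). Over both LPS states quercetin gave 0.06 for miR-21a-5p (interval -0.25 to 0.36) and -0.05 for miR-22-3p (interval -0.27 to 0.17). It gave -0.48 for miR-21a-3p and -0.50 for miR-22-5p (interval -0.996 to 0.0031, adjusted p = 0.112 by edgeR, or -0.71 and 0.0110 with the GC index), and again 0 of 4 passed, against 36.3% of tested miRNAs. With the settings reported the pooled intervals of both guides end within 0.36 of 0 on the log2 scale. This limit depended on the scaling and on the libraries used. For miR-21a-5p the upper end was 0.42 with TMM factors averaged over reference libraries and 0.50 without control 3. With upper quartile scaling the upper ends were 0.66 for miR-21a-5p (at 0.28) and 0.46 for miR-22-3p (at 0.18).

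LPS was compared next. In cells without quercetin both guides were at nearly equal levels on the TMM scale with and without LPS. miR-21a-5p averaged 135236 ± 22445 CPM in LPS and 134859 ± 22569 in control (log2 fold change 0.0040, interval -0.42 to 0.43). miR-22-3p averaged 150926 ± 13285 CPM in LPS and 150322 ± 23950 in control (0.0058, interval -0.31 to 0.32). With library size scaling these values were -0.14 and -0.13. As a share, miR-21a-5p averaged 12.2% in LPS and 13.4% in control, and miR-22-3p 13.5% and 14.8%. Each share was higher with LPS in 1 of 4 mice as labelled (exact permutation p = 0.571 and 0.457 before adjustment). The correlations of controls 3 and 4 with the libraries of mouse 4 differ from these labels, as given below. On the TMM scale the passengers were at 0.30 for miR-21a-3p (interval -1.03 to 1.63) and 0.22 for miR-22-5p (interval -0.49 to 0.92). No arm passed (adjusted p = 0.999 by edgeR for each), and few miRNAs did, at 0.528% of those tested (0.0% without any 1 of LPS 1, LPS 2, control 1 and control 4, without mouse 4 or without the 4 libraries that stood apart).

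In quercetin-treated cells miR-21a-5p averaged 157160 ± 43397 CPM with LPS and 125400 ± 18283 without (log2 fold change 0.33, interval -0.10 to 0.75, adjusted p = 0.689 by edgeR). Its share was higher with LPS in 4 of 4 mice, at 16.6% ± 3.12 in quercetin plus LPS and 13.4% ± 1.81 in quercetin. The two-sided exact permutation test, which does not pair libraries by mouse, gave p = 0.143. The other arms lay at -0.16 (miR-22-3p), 0.40 (miR-21a-3p) and -3.8e-04 (miR-22-5p), and 0.352% of tested miRNAs passed. With both quercetin states together the LPS values ran from -0.08 for miR-22-3p to 0.35 for miR-21a-3p, with 0 of 4 arms and 1.41% of tested miRNAs past the threshold. Whether the LPS difference itself differed with quercetin was tested as an interaction, at 0.32 for miR-21a-5p (interval -0.28 to 0.92, adjusted p = 0.905 by edgeR), and the share of miRNAs called there was 0.0%.

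**Figure D2:**
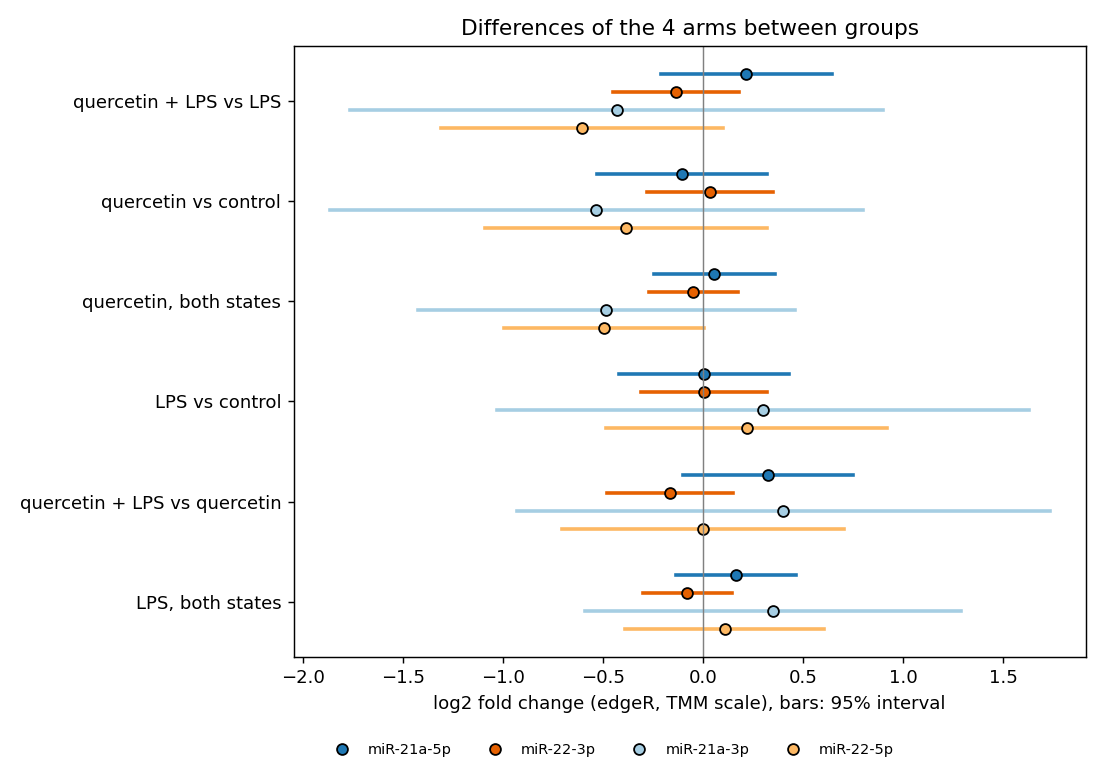
Log2 fold changes of the 4 arms (x axis, edgeR on the TMM scale) in 6 comparisons, with 95% intervals as bars. Every interval holds 0, and those of miR-21a-3p are the widest, as between quercetin plus LPS and LPS (-1.76 to 0.90).

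Shares and ratios were set against the groups by exact permutation tests (two-sided), 54 in all, which did not pair libraries by mouse. The ratios need no scaling across libraries. A share is scaled by the total of its library, so a change in an abundant miRNA moves the shares of the others. The smallest p that 4 against 4 libraries allow is 0.0286, and 0.000408 in the pooled comparisons. None had an unadjusted p under 0.05 and the smallest adjusted p was 0.937. The share of miR-21a-5p was 16.6% ± 3.12 in quercetin plus LPS and 12.2% ± 3.04 in LPS, higher in 4 of 4 mice (exact permutation p = 0.114 before adjustment). The summed share of the 4 arms averaged 30.7% in the 8 libraries with quercetin and 27.1% in the 8 without (exact permutation p = 0.0665 before adjustment), and was higher with quercetin in 6 of 8 comparisons within a mouse. A p above the threshold does not show that the shares were equal.

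The arms of both hairpins were very unequal. The ratio of guide to passenger was 68.5 to 966 for miR-21a, with a median of 196, and 1248 to 4506 for miR-22, with a median of 2401. By the size of the mean log2 ratio, miR-22 stood at place 5 and miR-21a at place 24 of the 150 hairpins with both arms tested, where the median was 3.69. The ratio of miR-22 varied less between replicates, with a within-group SD of 0.59 on the log2 scale, than that of miR-21a, with 1.16. Among the 74 hairpins whose scarcer arm averaged at least 100 counts, miR-21a had the place 3 from the highest SD and miR-22 the place 29, against a median SD of 0.53.

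**Figure D3:**
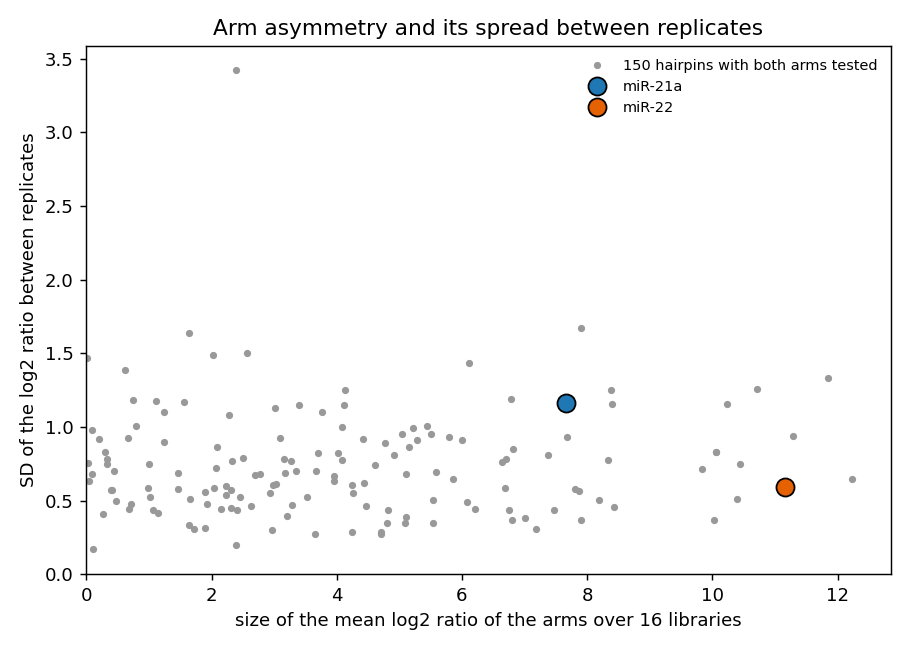
Each point is 1 of 150 hairpins, with the size of its mean log2 arm ratio over 16 libraries on the x axis and the within-group SD of that ratio on the y axis. miR-22 lies far to the right at an SD of 0.59, near the middle of the points, and miR-21a higher at 1.16.

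The log2 ratio of miR-21a-5p to miR-21a-3p was 8.84, 6.69, 6.96 and 9.92 in quercetin plus LPS replicates 1 to 4 and 6.80, 8.76, 8.497 and 7.65 in quercetin. It was 6.55, 6.10, 7.58 and 8.40 in LPS and 6.92, 6.41, 8.92 and 7.66 in control. Low and high ratios stood in each group. For miR-22 the log2 ratio of 3p to 5p was 11.8, 11.8, 11.2 and 10.4 in quercetin plus LPS, 12.1, 11.3, 11.2 and 11.2 in quercetin, 10.9, 11.3, 10.8 and 10.3 in LPS and 11.3, 12.03, 10.3 and 10.7 in control.

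Between quercetin plus LPS and LPS the ratio of guide to passenger differed by 0.94 on the log2 scale for miR-21a (95% interval -0.64 to 2.53, adjusted p = 0.457 by limma). It differed by 0.48 for miR-22 (interval -0.41 to 1.37, adjusted p = 0.503 by limma), and was higher in 4 of 4 mice for miR-22 and in 3 of 4 for miR-21a. Between quercetin and control the differences were 0.45 (interval -1.14 to 2.04) and 0.39 (interval -0.50 to 1.28). Neither hairpin passed in these or in the other comparisons; the shares of hairpins that did were 0.0% for quercetin plus LPS against LPS, 2.67% for quercetin against control, 8.0% for quercetin in both LPS states, 0.0% for LPS against control, 0.667% for quercetin plus LPS against quercetin, 1.33% for LPS in both quercetin states and 0.0% for the interaction. After LPS without quercetin both ratios lay lower, by -0.32 for miR-21a (interval -1.90 to 1.27) and -0.24 for miR-22 (interval -1.13 to 0.65).

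The arm ratio of miR-21a also varied across libraries with a GC index, that of miR-22 less so. The index was taken for each library as the slope of its log2 CPM, as deviations from the mean of all libraries, on the GC content of 452 other miRNAs, per 10 percentage points. It was lowest in quercetin plus LPS 4, at -0.92, and ran from -0.92 to 0.18 in quercetin plus LPS, from -0.19 to 0.24 in quercetin, from -0.24 to 0.30 in LPS and from -0.15 to 0.33 in control. Across the 16 libraries, as a description, the log2 ratio of the miR-21a arms, which differ most in GC, had a Pearson r of -0.73 with it (-0.58 without quercetin plus LPS 4), and that of the miR-22 arms 0.33 (0.13 without that library). The level of miR-21a-5p had r = -0.73 with the index (-0.49 without that library) and that of miR-21a-3p r = 0.61 (0.48 without it). With the mean of each group taken off, r was -0.77 for the miR-21a arm ratio and 0.58 for that of miR-22. For the level of miR-22-5p r was -0.28, and -0.66 with group means taken off. The points share a table, a scaling and mice, and the part of GC in the group differences was not separated from that of the treatments. When the index was added to the model after the data were seen, the miR-21a arm ratio between quercetin plus LPS and LPS was -0.35 in place of 0.94.

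**Figure D4:**
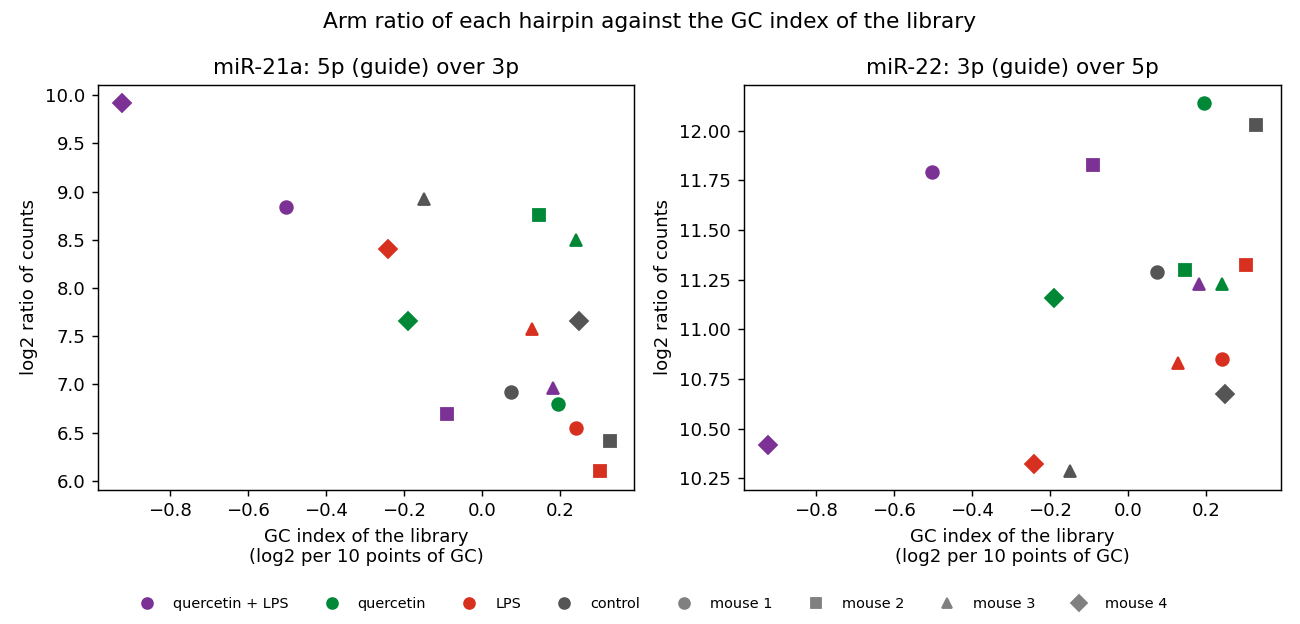
Log2 ratio of guide to passenger counts (y axes) for miR-21a, left, and miR-22, right, against the GC index of each library (x axes), coloured by group with a marker per mouse. For miR-21a the highest ratio, 9.92, stands at the lowest index, -0.92, in quercetin plus LPS 4, and quercetin 2 and 3 lie above the trend of the other points.

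The ratios of the hairpins did not move together. Over the 16 libraries the log2 arm ratio of miR-21a and that of miR-22 had a Pearson r of -0.52. Arms of the same hairpin had an r of -0.28 between log2 levels for miR-21a and -0.23 for miR-22. The passengers miR-21a-3p and miR-22-5p had r = -0.42, and the ratio of miR-21a-3p to miR-22-5p ran from 2.55 to 41.8.

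The miRNAs whose log2 CPM was most like that of each arm were sought among the 311 with a mean of at least 10 CPM, by Pearson r over 16 libraries. For miR-21a-5p (36.4% GC) they were miR-9-5p (r = 0.87), miR-101b-3p (r = 0.84) and miR-30a-5p (r = 0.83), with GC contents of 34.8%, 42.1% and 45.5%. For miR-21a-3p (59.1% GC) they were miR-330-5p (r = 0.83), miR-99b-5p (r = 0.73) and miR-330-3p (r = 0.73), with 59.1%, 63.6% and 60.9%. miR-22-3p was most like miR-467a-5p and miR-467b-5p, which carry the same counts (r = 0.69), and miR-425-5p (r = 0.65). miR-22-5p was most like miR-350-3p (r = 0.88), miR-20a-5p (r = 0.80) and miR-15b-3p (r = 0.76), with GC contents of 40.9%, 39.1% and 36.4% beside its own 40.9%.

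Near-identical copies of miR-21a-5p, miR-21b and miR-21c, were counted on rows of their own. They are shown because reads of the abundant guide with few sequence differences could be counted to them.

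miR-21b: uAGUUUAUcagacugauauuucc

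miR-21c: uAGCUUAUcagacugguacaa

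In the first 20 bases miR-21b differs from miR-21a-5p at 2 positions and miR-21c at 4, and miR-21c has the same seed. miR-21b was counted 25, 65, 40 and 47 times in quercetin plus LPS replicates 1 to 4, 9, 10, 19 and 50 times in quercetin, 27, 15, 17 and 19 times in LPS and 20, 8, 11 and 24 times in control. miR-21c had nearly the same counts, from 8 to 75. Both were higher in quercetin plus LPS than in LPS, with log2 fold changes of 1.57 for miR-21b (adjusted p = 0.0349 by edgeR) and 1.64 for miR-21c (adjusted p = 0.0395 by edgeR), where 8.63% of tested miRNAs were called higher. These calls were lost without quercetin plus LPS 2 (1.54 and 1.60, adjusted p 0.0515 and 0.0609 by edgeR) or LPS 2 (1.63 and 1.66, adjusted p 0.0599 and 0.0730) and with the GC index in the model (1.34 and 1.29, adjusted p 0.0962 and 0.119). That of miR-21c was also lost without quercetin plus LPS 4 (1.69, adjusted p 0.0525) or LPS 3 (1.63, adjusted p 0.0578). With quercetin in both LPS states the values were 1.19 and 1.22 (adjusted p = 0.0177 and 0.0219 by edgeR, with 16.2% called higher), and both calls were lost without mouse 4 (0.89 and 0.93) and without the 4 libraries that stood apart (0.76 and 0.82). That of miR-21c was also lost with the GC index (1.00014, adjusted p = 0.0594 by edgeR) and by limma-voom (1.01, adjusted p = 0.0540). At so few counts beside 908539 to 1908315 of miR-21a-5p, the assignment of these reads is uncertain.

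The 4 arms were put on a list of 20 miRNAs taken as linked to Toll-like receptor signals, all of which were tested. The list was chosen with earlier results of these data known, so its counts are a description and no independent support. Of the 20, 10 fell and 0 rose in quercetin plus LPS relative to LPS (14.3% of all tested miRNAs fell). In quercetin relative to control 8 fell and 0 rose (8.98% of all tested miRNAs fell). Over 27 alternatives, between 7 and 11 fell and at most 1 rose in the first comparison. Between 6 and 9 fell and 0 rose in the second. With LPS 1 rose in control cells, where 0.528% of all tested miRNAs rose, and 1 in quercetin-treated cells, where 0.352% rose, miR-155-3p in both. The median log2 fold change of the list was -1.08 in quercetin plus LPS against LPS and -1.42 over the 16 members other than these arms, beside -0.13 over all tested miRNAs. Among them miR-212-3p fell by 3.35 on the log2 scale (adjusted p = 1.2e-06 by edgeR). miR-155-3p, the passenger of the miR-155 hairpin, was higher in LPS than in control (log2 fold change 2.00, adjusted p = 0.0106 by edgeR), where the miR-21a and miR-22 arms had values from 0.0040 to 0.30. This call was lost without LPS 1, LPS 2, control 1, control 3 or control 4, without mouse 4 and without the 4 libraries that stood apart (values from 1.72 to 2.03, adjusted p 0.0503 to 0.0943 by edgeR). In quercetin plus LPS against quercetin miR-155-3p was at 2.30 (adjusted p = 0.00168 by edgeR), and that call was lost without mouse 4 (2.195, adjusted p = 0.0590 by edgeR). In quercetin plus LPS against LPS it lay between -1.46 and -0.85 over 27 alternatives and was called in 21. With LPS in both quercetin states 2 of the list rose, where 6 of 568 tested miRNAs did. These were miR-155-3p (2.15, adjusted p = 4.3e-05 by edgeR) and miR-222-3p (1.01, adjusted p = 0.0098 by edgeR). Over 27 alternatives 1 to 2 rose there.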

How the data were processed

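The deposited table holds raw read counts per mature miRNA for 16 libraries. Per the labels, a miRNeasy kit was used for RNA and a TruSeq kit for small RNA libraries. The authors used cutadapt and mm9, per the submitters' processing notes; the aligner and counting rule are not given in the sources used here. Of 1377 names on 1381 rows, counts on 2 rows were summed for 4 names, and 1 row with text and 4 rows whose counts looked exchanged between neighbours were left out, leaving 1372 names. No member was affected. Shares are percents of these deposited counts in a library.

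Levels were tested with edgeR 4.0.16 in R 4.3.3 (filterByExpr, TMM, quasi-likelihood, 1 fit of all 16 libraries without a block) over 568 miRNAs, with Benjamini-Hochberg adjustment and a threshold of 0.05 in 7 comparisons. Log2 arm ratios, with 0.5 added to each count, were tested with limma 3.58.1 over 150 hairpins. The model scripts were tested on simulated data. Single shares and ratios had exact permutation tests that did not pair libraries by mouse (scipy 1.17.1), adjusted over 54 tests. Intervals of shares are Wilson intervals at 95% and cover counting error only. Sequences and GC content came from RefSeq, which matched 458 of the 568 tested names (80.6%).

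Named miRNAs were the 4 arms, copies or miRNAs with a shared seed, the 10 most abundant of the controls, the 3 most like each arm, and up to 4 of the list of 20 by p; not all are printed. The members and lists were chosen with earlier results of these data known. Equal numbers mark the same mouse per the labels, and same-mouse libraries had a mean r of 0.14 in their deviations (24 pairs), against -0.04 for different mice (72 pairs). With the LPS, quercetin and quercetin plus LPS libraries of mouse 4, control 3 had r = 0.67, 0.47 and 0.57 and control 4 r = -0.16, -0.15 and -0.32, so these labels and correlations differ, and the labels were kept. No libraries of a group were near duplicates (smallest chi-square per degree of freedom 211 over 24 pairs).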

Additional observations from a re-analysis of the deposited data

Results flagged for a closer look

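The log2 ratio of miR-22-3p to miR-22-5p in quercetin replicate 1 was 12.1 (12.1375), apart from the other quercetin libraries, which lay between 11.2 and 11.3. Its gap to the nearest of them was 0.854 of the range of the group, above Dixon's 95% critical value for 4 samples. It was the 1 value so marked among 60 checked, where chance marks about 1 in 20. The library had the lowest count of miR-22-5p, 293, and its miR-22-3p share of 17.2% was within those of its group. The part of counting or library preparation in this was not tested.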

How the results depend on the processing

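No member passed its test with the settings reported, and in the level tests 840 values of the 28 member results under alternatives other than the GC index held no call either (smallest adjusted p 0.0526, miR-22-5p with quercetin in both LPS states under the replicate block, at -0.48). The GC index, added to the model after the data were seen, gave the only calls, for miR-22-5p between quercetin plus LPS and LPS (-1.04, adjusted p = 0.0231 by edgeR) and with quercetin in both LPS states (-0.71, adjusted p = 0.0110 by edgeR), 2 of 28 member results under it. Over its alternatives other than the GC index the adjusted p of the first was no lower than 0.0904. The arm ratios held no call in 320 values and the shares and guide ratios none in 828. Directions were not stable: the sign turned in 150 of 868 level values, 31 of 320 arm ratio values and 71 of 828 share and guide ratio values, where the turned values had adjusted p of at least 0.341, 0.725 and 0.842 in that order. The replicate block (mouse) changed no call of a member. Scaling moved the median of all tested miRNAs: it was 0.15 in quercetin against control and 0.14 in quercetin plus LPS against LPS with upper quartile, where TMM gave -0.05 and -0.13, and with library size 0.15 in the second and -0.13 in LPS against control, where TMM gave 0.02. Calls in quercetin plus LPS against LPS were 49 higher and 81 lower with TMM, 67 and 66 with RLE, 71 and 54 with upper quartile and 75 and 50 with library size. Calls over all miRNAs with LPS in both quercetin states, 8 with the settings reported, ran from 3 to 8, those in LPS against control, 3 as reported, from 0 to 6 (the highest with the GC index), and those in quercetin plus LPS against quercetin from 1 (without mouse 4) to 7 (without quercetin 4).

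The values whose sign turned follow, as log2 differences unless a share is named; beyond the construction of each setting, the cause was not tested. For miR-21a-5p in LPS against control they were -0.027 with DESeq2 and with RLE scaling, -0.022 with upper quartile, -0.14 with library size, -0.0081 with TMM without the members, -0.070 without the filter, -0.014 with the block, -0.086 without mouse 4, -0.045 without the 4 libraries that stood apart and -0.0097 with the GC index. For miR-22-3p in that comparison they were -0.022 with DESeq2 and RLE, -0.026 with upper quartile, -0.13 with library size, -0.0070 with TMM without the members, -0.066 without the filter, -0.090 without mouse 4 and -0.072 without the 4 libraries.

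For miR-22-3p in quercetin plus LPS against LPS the values were 0.0074 with DESeq2 and RLE, 0.12 with upper quartile and 0.13 with library size. With quercetin in both LPS states they were 0.037, 0.18 and 0.14. miR-22-5p in quercetin plus LPS against quercetin was at 0.065 with DESeq2 and RLE, 0.037 with upper quartile and 0.028 without the filter. miR-21a-5p in quercetin against control was at 0.095 with upper quartile, and the interaction of miR-21a-3p at -0.19 with limma-voom and -0.033 with the block. As parts of counts of all other miRNAs, miR-21a-5p was 0.25 points higher in quercetin than in control and miR-21a-3p 0.0090 points higher in quercetin plus LPS than in LPS.

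The TMM reference library was also varied after the data were seen, since leaving out libraries moved some values past the reported one. The library that edgeR picks, quercetin 1, gave the lowest of 16 values for miR-22-3p in quercetin plus LPS against LPS (-0.13, highest 0.043, below 0 for 7 of 16 references). The highest values were also 0.044 for quercetin in both LPS states and 0.029 for the interaction of miR-22-3p, and 0.16 for miR-22-5p in quercetin plus LPS against quercetin. The lowest in LPS against control were -0.077 for miR-21a-5p and -0.075 for miR-22-3p, and -0.059 for miR-22-3p in quercetin against control. With factors averaged over references, miR-21a-5p was at -0.036 and miR-22-3p at -0.034 in LPS against control, miR-22-5p at 0.089 in quercetin plus LPS against quercetin and miR-22-3p at 0.0068 with quercetin in both LPS states. For miR-21a-5p quercetin 1 also gave the lowest value in quercetin plus LPS against LPS (0.22, highest 0.39) and against quercetin (0.33, highest 0.49). The same held for its interaction (0.32, highest 0.53). No member was called with any reference, and miR-21b and miR-21c kept their calls with all 16.

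With the GC index, levels turned to 0.37 for miR-21a-3p and -0.066 for miR-21a-5p in quercetin plus LPS against LPS, to 0.050 and -0.094 with quercetin in both LPS states, and to -0.13 for miR-22-5p with LPS in both quercetin states. Arm ratios turned to -0.35 for miR-21a in quercetin plus LPS against LPS, -1.09 for miR-21a and 0.34 for miR-22 in quercetin plus LPS against quercetin, 0.064 for miR-22 with LPS in both quercetin states and -0.72 for the interaction of miR-21a.

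Without mouse 4, miR-22-3p in quercetin against control was at -0.013, miR-21a-5p with quercetin in both LPS states at -0.038 and miR-22-5p with LPS in both quercetin states at -0.11. The arm ratios in quercetin plus LPS against quercetin were -0.52 (miR-21a) and 0.061 (miR-22), the same without the 4 libraries that stood apart. The guide ratio in LPS against control was 0.014, and the passenger ratio, miR-21a-3p over miR-22-5p, in quercetin plus LPS against LPS 0.039. There the share of miR-21a-3p differed by 0.0031 points; this and the passenger ratio were the same without the 4 libraries. The share of miR-22-5p was -9.1e-05 in LPS against control and -0.00037 with LPS in both quercetin states. Without the 4 libraries, miR-21a-5p was at -0.011 with quercetin in both LPS states, miR-22-5p at -0.0076 with LPS in both quercetin states, the miR-21a arm interaction at -0.27, the guide ratio at 0.028 and the passenger ratio at -0.049 in LPS against control, and the miR-22-5p share at -0.00013 with LPS in both quercetin states. In quercetin against control miR-21b was at -0.061 and miR-21c at -0.031.

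Leaving out each library in turn gave these ranges where a sign turned. In LPS against control they were -0.16 to 0.024 for miR-21a-5p, -0.14 to 0.49 for miR-21a-3p, -0.13 to 0.060 for miR-22-3p, -0.048 to 0.38 for miR-22-5p, -0.73 to 0.16 for the miR-21a and -0.50 to 0.083 for the miR-22 arm ratio, -0.19 to 0.10 for the guide and -0.56 to 0.58 for the passenger ratio. In quercetin plus LPS against LPS they were -0.86 to 0.10 for miR-21a-3p, -0.080 to 0.16 for miR-22-3p and -0.80 to 0.55 for the passenger ratio. In quercetin plus LPS against quercetin they were -0.10 to 0.92 for miR-21a-3p, -0.19 to 0.060 for miR-22-3p, -0.14 to 0.26 for miR-22-5p, -0.43 to 0.64 for the miR-21a and -0.31 to 0.16 for the miR-22 arm ratio, and -0.51 to 0.83 for the passenger ratio. In quercetin against control they were -0.075 to 0.15 for miR-22-3p, -0.84 to 0.29 for the passenger ratio, -0.015 to 1.05 for miR-21b and -0.064 to 1.08 for miR-21c.

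With quercetin in both LPS states the ranges were -0.044 to 0.11 for miR-22-3p, -0.021 to 0.20 for the guide and -0.50 to 0.17 for the passenger ratio. With LPS in both quercetin states they were -0.12 to 0.013 for miR-22-3p, -0.37 to 0.17 for the miR-21a arm ratio and -0.22 to 0.45 for the passenger ratio. For the interaction they were -0.36 to 0.67 for miR-21a-3p, -0.13 to 0.096 for miR-22-3p, -0.31 to 0.15 for miR-22-5p, -0.11 to 0.96 for the miR-21a and -0.22 to 0.40 for the miR-22 arm ratio. Shares, in points, ran from -0.013 to 0.022 (miR-21a-3p) and -0.00083 to 0.0015 (miR-22-5p) in LPS against control, -0.032 to 0.019 (miR-21a-3p) in quercetin plus LPS against LPS, -0.0045 to 0.047 (miR-21a-3p) and -0.00087 to 0.00044 (miR-22-5p) in quercetin plus LPS against quercetin, -1.44 to 0.61 (miR-21a-5p) in quercetin against control, and -0.00048 to 0.00071 (miR-22-5p) and -1.68 to 0.42 (the 4 arms summed) with LPS in both quercetin states.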
